A study of Mus musculus with 6 samples.

Results

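Transcripts of 7 chemokine genes, Xcl1, Ccl3, Ccl4, Ccl5, Ccl17, Ccl22 and Cxcl10, were followed in B lymphocytes purified from mouse spleen. They were chosen as chemokines known to be made by B cells, and they are 7 of 19057 genes with a probe of their own on the array. They were identified by the gene symbol of the platform annotation, and each was represented by its brightest probe (the highest mean log2 intensity over the 6 arrays). In 3 samples the B cell antigen receptor was cross-linked with goat F(ab')2 fragments against mouse IgM, used at 2.5 µg/ml for 3 h. The other 3 samples are labelled untreated. All B cells came from C57BL/6 mice, an inbred strain, aged 8 weeks. CD40 ligand at 200 ng/ml and interleukin 4 at 5 ng/ml are also named in the protocol, which does not say whether all samples or the anti-IgM samples alone received them. Their effects and those of anti-IgM therefore cannot be told apart here if the untreated samples received neither.

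One Illumina bead array of 45281 probes was used per sample. All arrays had a median intensity of 72.8, log2 6.19, which is used below as the mark between dim and measurable probes, because no detection p-values were analysed here. Tests were limited to probes that exceeded this mark on 3 or more of the 6 arrays. The arrays labelled replicate 1 stood apart in both groups. Xist, a transcript of female cells, had an intensity of 52.6 there, against 791 to 2031 on the other arrays. Eif2s3y, a Y-linked gene, had 516 in anti-IgM replicate 1 and 1043 in untreated replicate 1, against 48.6 to 56.4 on the other arrays. Of all genes tested 23.9% were lower with anti-IgM and 23.2% higher. Of 7 B cell markers tested 6 (Blk, Cd22, Cd37, Cd79b, Fcer2a and Ms4a1) were lower and none higher. With the replicate block all 7, Cr2 included, were lower. Their summed intensity was between 12124 and 14771 in anti-IgM samples and between 45500 and 54279 in untreated samples. The antigen receptor chain gene Cd79b was bright in both, with a mean log2 intensity of 11.81 in anti-IgM samples and 14.57 in untreated samples. In each group the Xist and Eif2s3y values mark replicate 1 as male cells and replicates 2 and 3 as female cells. Replicate 1 thus came from other mice than replicates 2 and 3, and sex differs within each group. Whether replicates 2 and 3 are from different mice or cultures is not stated in the labels. The p-values therefore reflect sample-to-sample spread that may in part be technical.

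Chemokines are small secreted proteins that guide the movement of cells carrying matching G protein-coupled receptors. Ccl3, Ccl4 and Ccl5 are inflammatory CC chemokines that attract T cells and macrophages, and Ccl3 and Ccl5 act on CCR1. Xcl1 acts on XCR1, a receptor of cross-presenting dendritic cells. Ccl17 and Ccl22 act on CCR4 of helper and regulatory T cells, and Cxcl10, an interferon-inducible chemokine, acts on CXCR3 of effector T cells. An activated B cell that secretes such proteins can draw T cells towards itself.

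Promoter sequences were available for 5 of the 7 genes, from RefSeq on build GRCm38.p6, as the 250 bases before the gene's start. Those of Ccl3 and Xcl1 are shown because both transcripts were much more abundant with anti-IgM, and that of Cxcl10 because its brighter probe stayed below the array median on 5 of 6 arrays. The Ccl3 window is chr11:83649379-83649628, the Xcl1 window chr1:164935523-164935772 and the Cxcl10 window chr5:92348890-92349139, each read on the minus strand of the chromosome, 5′ to 3′. Capitals mark matches on either strand to GGGNNNNNCC, a loose form of the NF-kB site, and to GGAAA, the core of NFAT sites.
Ccl3: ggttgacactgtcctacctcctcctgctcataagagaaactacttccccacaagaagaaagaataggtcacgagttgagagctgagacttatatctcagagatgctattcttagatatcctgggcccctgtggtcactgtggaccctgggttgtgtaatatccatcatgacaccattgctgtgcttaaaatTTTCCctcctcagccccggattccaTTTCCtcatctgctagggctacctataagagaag
Xcl1: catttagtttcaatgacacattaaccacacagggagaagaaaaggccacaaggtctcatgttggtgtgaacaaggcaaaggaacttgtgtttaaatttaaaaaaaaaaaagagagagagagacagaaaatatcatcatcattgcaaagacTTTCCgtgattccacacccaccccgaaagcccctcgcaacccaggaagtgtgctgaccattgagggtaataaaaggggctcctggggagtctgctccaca
Cxcl10: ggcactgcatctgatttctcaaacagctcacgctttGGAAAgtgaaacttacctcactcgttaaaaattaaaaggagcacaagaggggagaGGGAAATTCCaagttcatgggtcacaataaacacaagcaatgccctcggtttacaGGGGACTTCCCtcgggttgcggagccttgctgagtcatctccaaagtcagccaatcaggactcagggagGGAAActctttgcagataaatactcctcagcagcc
The GGGNNNNNCC letters were found 3 times before Cxcl10, including a pair that overlap each other, and 2 times before Ccl22. They were not found in the windows of Ccl3, Xcl1 or Ccl17. Of 32851 RefSeq promoter windows of the same length 45.8% held them. The GGAAA core stood 2 times before Ccl3, 1 time before Xcl1, 1 time before Ccl17 and 3 times before Cxcl10, where 1 of the matches lies inside a GGGNNNNNCC match. It was not found before Ccl22, and 55.6% of all windows held it. The AP-1 letters TGANTCA were found 1 time, before Cxcl10, and in 6.75% of windows. The STAT6 letters TTCNNNNGAA were found 1 time, before Ccl17, overlapping its GGAAA match, and in 5.85% of windows. These matches describe the letters of the windows and show no binding.

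The comparison of anti-IgM with untreated samples asks which chemokine transcripts differ once the antigen receptor has been engaged. Xcl1, Ccl3 and Ccl4 were higher with anti-IgM by 51.3, 33.4 and 17.3 times, each by its brightest probe. A further Ccl4 probe gave 50.3 times, so the order of these sizes depends on the probe. Ccl5 was lower, by 1.69 times, and Ccl17, Ccl22 and Cxcl10 lay near the array median in both groups and were not tested. Thus 4 of the 7 genes passed the filter on dim probes, of which 3 were called higher and 1 lower at an adjusted p under 0.05. Over all 11855 genes tested, 23.2% were called higher and 23.9% lower, 47.1% in all. Changes are given as log2 differences, anti-IgM minus untreated, ± SE from limma fitted on all genes tested, with n = 3 in each group.

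**Figure D1:**
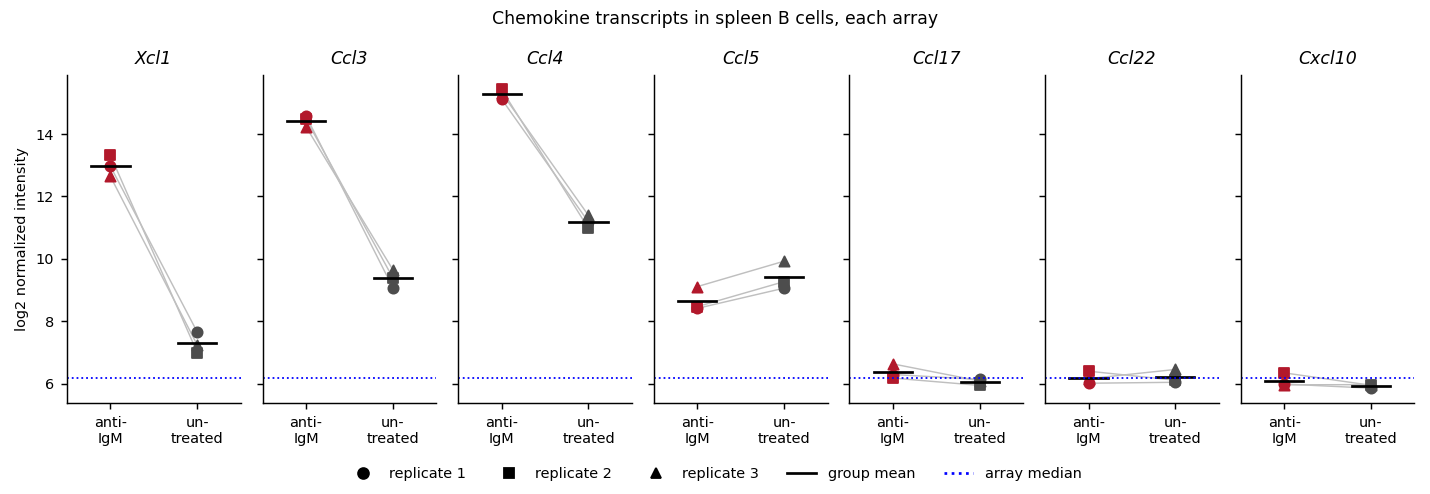
Log2 normalized intensity of the brightest probe of each chemokine gene on each of the 6 arrays, anti-IgM on the left and untreated on the right of each panel. Grey lines join arrays with the same replicate number, black bars are group means (n = 3) and the dotted line is the array median of 6.19. The Xcl1, Ccl3 and Ccl4 points of the groups lie far apart, those of Ccl5 overlap, and those of Ccl17, Ccl22 and Cxcl10 lie near the dotted line.

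Ccl3, the macrophage inflammatory protein 1 alpha, had log2 intensities of 14.58, 14.48 and 14.23 in anti-IgM samples, against 9.07, 9.39 and 9.65 in untreated samples. On the linear scale these are 19237 to 24491 in anti-IgM samples and 538 to 802 in untreated samples. The groups lay far apart, and the replicate with the highest untreated level had the lowest level with anti-IgM. The change was 5.06 ± 0.15 (adjusted p = 1.40e-08, limma), the third highest of all genes tested when each is read by its brightest tested probe. Within the numbered pairs it was 5.51, 5.10 and 4.58, and without both replicate 1 arrays it was 4.84.

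Ccl4, the macrophage inflammatory protein 1 beta, is read by 2 probes, both of which were tested. The brighter, ILMN_1223257, had log2 intensities of 15.12, 15.43 and 15.32 in anti-IgM samples, against 11.18, 10.97 and 11.39 in untreated samples. Its change was 4.11 ± 0.12 (adjusted p = 1.40e-08, limma). The highest log2 intensity of any probe was between 15.52 and 15.74 on the 6 arrays, so this probe read close to the top of the scale with anti-IgM and its rise can be understated. The other probe, ILMN_1224472, had linear intensities of 27403, 27165 and 24160 in anti-IgM samples, against 518, 511 and 533 in untreated samples. In both groups its SD of log2 intensity was the smallest among the tested probes of the 7 chemokines. It gave a log2 difference of 5.65, or 50.3 times, with pair values of 5.72, 5.73 and 5.50. The size of the Ccl4 rise thus depends on the probe, while both probes separated the groups on every array. The mean of both probes gave a change of 4.88, and leaving out both replicate 1 arrays gave 4.19 for the brighter probe.

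Xcl1, also called lymphotactin, had log2 intensities of 12.97, 13.32 and 12.64 in anti-IgM samples, against 7.65, 6.99 and 7.23 in untreated samples. The linear intensities were 6383 to 10205 in anti-IgM samples and 127 to 201 in untreated samples. All 3 untreated values were above the array median of 72.8 but not far from it, so background signal that was not subtracted may compress the fold. The change was 5.68 ± 0.20 (adjusted p = 1.61e-08, limma), the second highest of all genes tested on the same basis. The pair values were 5.32, 6.32 and 5.41, which is a wider spread than that of either Ccl4 probe. Subtracting the 5th percentile of each array raised the change to 6.24, and leaving out both replicate 1 arrays gave 5.86. The groups did not overlap for Xcl1, Ccl3 and Ccl4, as was the case for 54.8% of all genes tested.

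Ccl5, also called RANTES, went the other way. It had log2 intensities of 8.41, 8.46 and 9.11 in anti-IgM samples, against 9.06, 9.27 and 9.92 in untreated samples. Anti-IgM replicate 3 read above untreated replicate 1, so the groups overlap, and replicate 3 was the highest of both groups. Within the numbered pairs the change was −0.65, −0.80 and −0.82, lower with anti-IgM in 3 of 3. Limma gave −0.76 ± 0.24 (adjusted p = 0.025), and with the replicate number as a block the SE was 0.11 and the adjusted p 3.24e-06. That smaller SE rests on the pairing by number, which the labels do not explain. A correlation check on these arrays did not tell pairs 2 and 3 from each other. Without the block, the call was lost when anti-IgM replicate 1 (adjusted p = 0.062), anti-IgM replicate 2 (0.10) or untreated replicate 3 (0.11) was left out. Without both replicate 1 arrays it held (−0.81; adjusted p = 0.000595). In such bulk samples fewer cells of a type and less RNA per cell cannot be told apart.

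**Figure D2:**
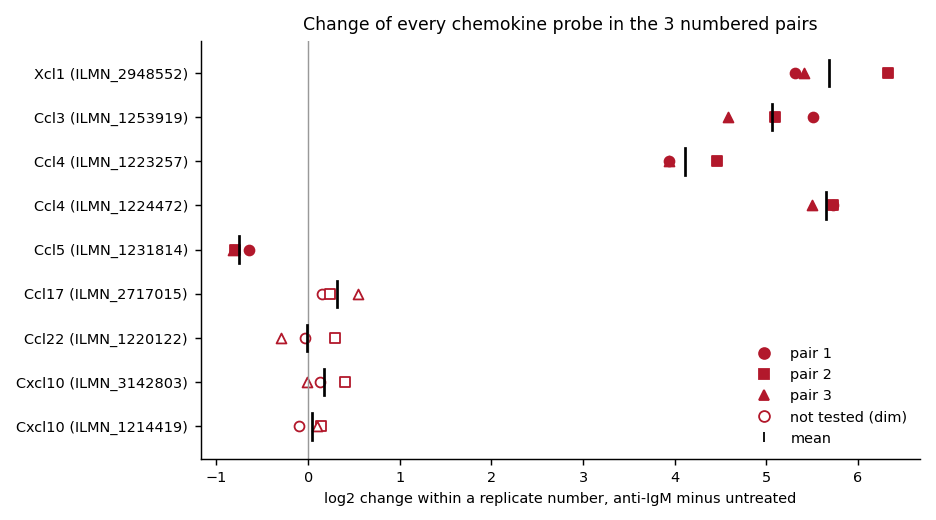
Log2 change, anti-IgM minus untreated, within each replicate number for all 9 probes of the 7 genes, with the mean as a black bar and open symbols for probes too dim to be tested. All pairs of Xcl1, Ccl3 and both Ccl4 probes lie above 3.9, all pairs of Ccl5 lie below 0, and those of the open symbols lie between −0.30 and 0.55.

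The CCR4 ligands were near background. Ccl17 had log2 intensities of 6.29, 6.17 and 6.63 in anti-IgM samples, against 6.13, 5.94 and 6.08 in untreated samples. The groups did not overlap, but 2 of 3 anti-IgM arrays and none of the untreated arrays were above the array median, so the gene was not tested. With all 19057 genes fitted and no filter, the change was 0.31 ± 0.14 (95% interval −0.0020 to 0.63; adjusted p = 0.15, limma). Ccl22 had 6.01, 6.40 and 6.15 in anti-IgM samples, against 6.04, 6.11 and 6.45 in untreated samples. These groups overlapped, and 1 array of each was above the median. The change without a filter was −0.01 ± 0.15 (95% interval −0.34 to 0.32; adjusted p = 0.97, limma). Both genes are known in mouse B cells as targets of CD40 signals and interleukin 4. At such low signal folds are compressed, and a small change in either would not be detectable on these arrays.

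Cxcl10 was also dim. Its brighter probe had log2 intensities of 5.98, 6.34 and 5.96 in anti-IgM samples, against 5.85, 5.94 and 5.96 in untreated samples, with 1 anti-IgM array above the array median. Without a filter the change was 0.18 ± 0.13 (95% interval −0.10 to 0.45; adjusted p = 0.40, limma). Its other probe read between 50.6 and 57.1 in anti-IgM samples and between 51.9 and 54.0 in untreated samples, below the array median of 72.8 on all 6 arrays. A list of interferon-responsive genes, among which Cxcl10 is usually counted, was measured in the same samples. Of 14 of its members tested 10 were lower and 1 higher, against 23.9% and 23.2% of all genes tested, with a median change of −1.06. Among the 10, Irf7 and Mx2 passed the filter on dim probes through their untreated arrays alone. Their calls as lower are therefore not independent of that filter. The largest falls were those of Stat2 (−2.20 ± 0.26), Ifit3 (−2.13 ± 0.17) and Gbp2 (−1.99 ± 0.24), read by the brightest probe of each gene. As the mean of its tested probes Ifit3 changed by −1.40 and Gbp2 by −1.22. With the replicate block 11 were lower, Oasl1 (−0.62; adjusted p = 0.0099) being added. The pair values of Oasl1 were −0.73, −1.29 and 0.18. Cxcl9, a CXCR3 ligand and close relative of Cxcl10, changed by 0.11 ± 0.16 (adjusted p = 0.64, limma), and Cxcl11 was too dim to be tested. Isg15, the member that was higher (0.51 ± 0.17; adjusted p = 0.032), lost its call when untreated replicate 1 or 2 or anti-IgM replicate 2 or 3 was left out (adjusted p between 0.063 and 0.13).

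Several of the genes lie side by side on the chromosome. In the RefSeq gene table Ccl5, Ccl9, Ccl6, Ccl3 and Ccl4 follow each other on chromosome 11 with no other protein-coding gene between them (0 at each step). Within this run Ccl3 and Ccl4 were higher by 5.06 and 4.11 on the log2 scale, and Ccl5 was lower. Ccl9, a macrophage chemokine, changed by 0.24 ± 0.19 (adjusted p = 0.37, limma), and Ccl6, another, by −0.12 ± 0.15 (adjusted p = 0.57). A second run on the same chromosome holds Ccl2, Ccl7, Ccl11, Ccl12, Ccl8 and Ccl1, of which Ccl11 and Ccl1 alone were bright enough to be tested. Neither was called in the fit of group alone. Ccl1, a ligand of CCR8, changed by 0.64 ± 0.27 (adjusted p = 0.076, limma), and with the replicate number as a block it was called (adjusted p = 0.0034). It had 6.66, 7.75 and 7.56 in anti-IgM samples, against 6.62, 6.98 and 6.44 in untreated samples, so that replicate 1 hardly differed. On chromosome 8, Ccl22 and Ccl17 flank Cx3cl1, which encodes fractalkine and changed by 0.01 ± 0.16 (adjusted p = 0.98, limma).

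**Figure D3:**
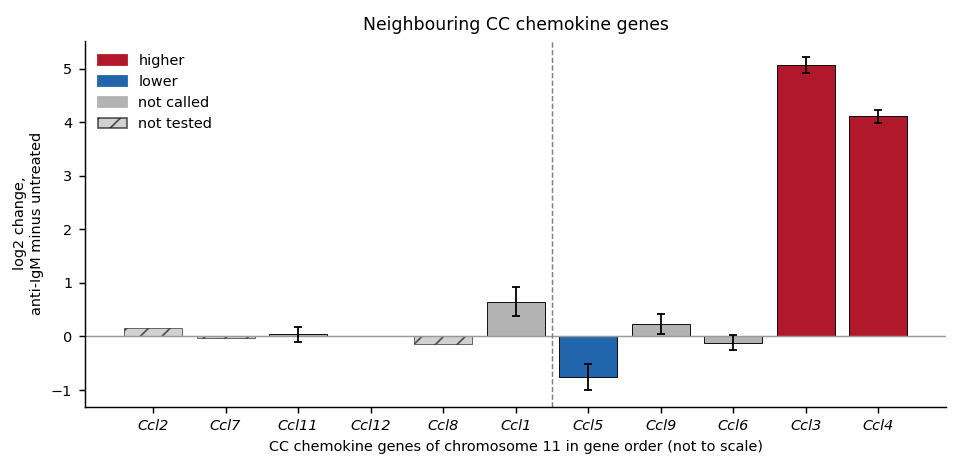
Log2 change, anti-IgM minus untreated, of the CC chemokine genes of chromosome 11 in gene order, with SE from limma where the gene was tested. Hatched bars are genes too dim to be tested, and the dashed line parts the run from Ccl2 to Ccl1 from that of Ccl5 to Ccl4. Ccl3 and Ccl4 stand at 5.06 and 4.11 beside Ccl6 at −0.12 and Ccl9 at 0.24.

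Few other chemokine ligand genes passed the test. Of 33 listed, 31 had a probe, 13 were too dim to be tested and 18 were tested. Of these 18, 2 were called higher and none lower, against 23.2% and 23.9% of all genes tested. Many were dim, since 6 of the 18 had a probe above the array median on all 6 arrays. The median change of the 18 was 0.17, against 0.02 for all genes tested. Cxcl16, a membrane-bound ligand of CXCR6 that also binds oxidized lipoprotein, had log2 intensities of 9.07, 8.93 and 9.16 in anti-IgM samples, against 7.38, 7.50 and 8.14 in untreated samples. The groups lay apart and the change was 1.38 ± 0.20 (adjusted p = 0.000179, limma). Cxcl1, a ligand of the neutrophil receptor CXCR2, was the other, at 0.37 ± 0.13 (adjusted p = 0.038). It lost the call with no filter on dim probes (adjusted p = 0.070), without anti-IgM replicate 1 (adjusted p = 0.098) or 2 (0.082), without untreated replicate 1 (0.13) or 2 (0.070) and without both replicate 1 arrays (0.24). With the replicate block 4 ligands were called higher, the additional ones being Ccl1 and Ccl21c (0.36; adjusted p = 0.040). Above the array median on no array were Ccl2, Ccl21a, Ccl26, Ccl28, Cxcl3, Cxcl13 and Cxcl15.

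The receptors of these chemokines that were analysed here, apart from the scavenging receptor Ackr2 given below, were scarcely measurable in the same samples. Ccr1, Ccr3 and Ccr4 stayed below the array median throughout. Cxcr3, the receptor of Cxcl10, changed by −0.08 ± 0.14 (adjusted p = 0.70, limma), with 2 arrays of each group above the median. Xcr1, the receptor of Xcl1, was above the median on all 3 untreated arrays and on no anti-IgM array, so it was at least 1.16-fold lower. It passed the filter on dim probes through its untreated arrays alone, so its call as lower is not independent of that filter. Among the other chemokine receptors 9 of 18 were tested, with a median change of −0.50. Of these 5 were called lower and none higher, against 23.9% and 23.2% of all genes tested. Ccr6, a receptor for Ccl20, changed most (−3.04 ± 0.30), followed by the scavenging receptor Ackr2 (−1.63 ± 0.26), which binds inflammatory CC chemokines, and Cxcr4 (−1.37 ± 0.10), the receptor of Cxcl12. Cxcr5, which leads B cells into follicles, changed by −0.77 ± 0.11, and Ackr4 was at least 1.20-fold lower, a call lost without anti-IgM replicate 1 (adjusted p = 0.060). Like Xcr1, Ackr4 passed the filter on dim probes through its untreated arrays alone. Ccr7, which leads lymphocytes to T cell zones, did not pass the test (0.03 ± 0.17; adjusted p = 0.92, limma).

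**Figure D4:**
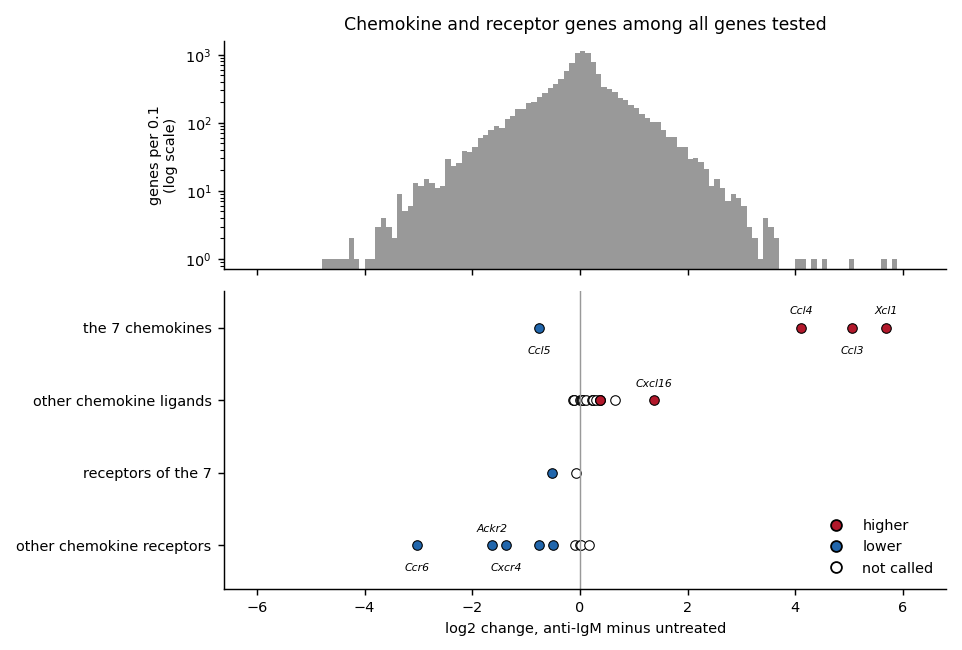
Top, the log2 change, anti-IgM minus untreated, of all 11855 genes tested, in bins of 0.1 on a log count axis. Below, the same change for the tested chemokine genes, the other ligands, the receptors of the 7 chemokines and the other chemokine receptors (Ackr2 included), coloured by call. Xcl1, Ccl3 and Ccl4 lie at the right end, and the called receptors lie to the left of 0.

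Genes known to control chemokine transcription went both ways. Of 21 tested, 9 were higher and 8 lower, against 23.2% and 23.9% of all genes tested, with a median change of 0.14. Among these 21, Irf1, Irf7 and Stat2 also belong to the interferon list. The highest were Fosl2, an AP-1 subunit that was at least 17.0-fold higher by its brightest probe, Irf4 (1.81 ± 0.12) and Fosb (1.77 ± 0.14). Stat2, Nfatc3 (−1.94 ± 0.10), a factor activated by calcium signals, and Cd40 (−1.51 ± 0.12) were the lowest. As the mean of its tested probes Fosl2 changed by 1.88 and Cd40 by −0.85. The NF-kB subunit genes Rel, Nfkb2 and Relb were higher (1.67 ± 0.13, 0.84 ± 0.14 and 0.60 ± 0.12), and Rela did not pass the test (0.00 ± 0.10; adjusted p = 0.98, limma). Stat6, the factor that carries the interleukin 4 signal, was higher by 0.43 ± 0.13 (adjusted p = 0.016), and lost the call without anti-IgM replicate 2 (0.070) or untreated replicate 2 (0.057). Il4ra, the receptor chain upstream of it, was at least 1.71-fold lower. Fosl2, Il4ra and Irf7 passed the filter on dim probes only through the group where they are high, so their calls are not independent of it.

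Likeness to each tested chemokine was measured over the 6 arrays as the root mean square difference between log2 profiles, each centred on its own untreated mean. Nearest to Xcl1 was the cell cycle regulator Rgcc (0.38), followed by Ccl3 (0.57) and Rgs16 (0.84), which turns off G protein signals. Nearest to Ccl3 were Rgs16 (0.41), Fosl2 (0.56) and Xcl1 (0.57). Nearest to the brighter Ccl4 probe were Fosl2 (0.28), Chac1 (0.35), which degrades glutathione, and Ciart (0.41), a repressor of the circadian clock. Ccl5 lay closest to the histone gene H3c1 (0.15), Lgals3bp (0.15) and Rbpms (0.16). The other Ccl4 probe, with its larger difference of 5.65, was not used in this measure. With 3 arrays a group it mainly reflects the size of the change.

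Natural killer cells, T cells and macrophages also make Ccl3, Ccl4 and Ccl5, and natural killer cells and T cells also make Xcl1. Markers of such cells are therefore given here. Of all genes tested 23.2% were called higher and 23.9% lower. Of 6 natural killer cell markers tested 1 was higher, Nkg7 (1.20 ± 0.21), and 1 lower, Klrd1 (−0.78 ± 0.15). With the replicate block 2 were higher and 2 lower, Klrb1c (0.39; adjusted p = 0.048) and Prf1 (−0.43; adjusted p = 0.014) being added. The summed intensity of the 9 markers with a probe was 2550 to 4838 in anti-IgM samples and 2158 to 6033 in untreated samples. The defining receptor Ncr1 and Gzmb stayed below the array median throughout, while Nkg7 was above it on all 6 arrays. Prf1 was bright, at 1686 to 3995 in anti-IgM samples and 1446 to 5330 in untreated samples. Its pair values were 0.22, −1.09 and −0.42. Of 8 T cell markers tested none was higher and 2 were lower, Cd28 (−1.35 ± 0.16) and Cd8b1 (−0.58 ± 0.10). With the replicate block 1 was higher, Lat (0.36; adjusted p = 0.0498). The summed intensity of the 10 with a probe was 1884 to 2162 in anti-IgM samples and 2642 to 3031 in untreated samples. The T cell receptor chain genes Cd3e and Cd3g were above the median on all 3 untreated arrays and on no anti-IgM array. Cd3d was above it on all 6 arrays, and Cd8a on no array. Cd8b1 was bright, at 1119 to 1281 in anti-IgM samples and 1671 to 1895 in untreated samples. Of 6 macrophage and monocyte markers none was higher and Adgre1 was lower (−2.10 ± 0.22), with sums over the 8 with a probe of 1507 to 2617 in anti-IgM samples and 1637 to 5955 in untreated samples. With the replicate block 1 of these was higher, Cd14 (adjusted p = 0.018), and 2 lower, Lyz2 (adjusted p = 5.65e-05) being added. Itgam was not above the median on any array, while Lyz2 was bright. Its intensity was 859 to 1937 in anti-IgM samples and 844 to 4926 in untreated samples, with pair values of 0.03, −1.46 and −1.35. The Lyz2 SE with the block, 0.17, was moderated by limma across genes and does not reflect the spread of these pairs. Of 5 dendritic cell markers tested, Zbtb46 was higher (1.76 ± 0.14, or 0.86 as the mean of its tested probes), and Cst3 (−1.22 ± 0.20) and Xcr1 were lower. The sums over the 9 with a probe were 2547 to 3716 in anti-IgM samples and 4293 to 6895 in untreated samples. Of 6 neutrophil markers S100a8 (−0.97 ± 0.32) and S100a9 (−0.85 ± 0.22) were lower, the first of these not when any of 4 arrays was left out (adjusted p between 0.064 and 0.14). With the replicate block 3 were lower, Ltf (−0.45; adjusted p = 0.026) being added. The 1 basophil and mast cell marker tested, Fcer1a, was not called (0.22 ± 0.14; adjusted p = 0.24, limma). The part of all such cells in the chemokine changes was not tested.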

How the data were processed

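The authors deposited, per the labels, 1 intensity per probe for each of 6 Illumina arrays on a linear scale. The values were already normalized between arrays, as their equal medians show, by a method not given in the sources used here. A second deposited table, of signals before normalization, was left out since its 6 columns match no sample label. Probes were named through the platform annotation, where 34885 of 45281 have 1 gene symbol.

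The deposited intensities were put on the log2 scale without another normalization, and 23505 probes passed the filter on dim probes. Per gene the brightest tested probe was kept. Groups, taken from the sample titles, were compared with limma 3.58.1 in R 4.3.3 (eBayes with an intensity trend, group alone, two-sided, Benjamini-Hochberg over 11855 genes). The number of arrays limits the precision, and the median SE was 0.15. For a gene above the array median on no array of 1 group, a bound sets the other group's mean against the measured value or the array median, whichever is higher. Such a gene, where tested, passed the filter through the other group alone, so its call is not independent of the filter. The script was tested on simulated data of 11855 genes, of which 200 were changed. Changes of 2 on the log2 scale were called in 100% of 50 genes, of 1 in 68% of 50 and of 0.5 in 20% of 50. In the real data 47.1% of genes were called, so these percentages do not give the sensitivity of the tests here.

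The chemokines, the lists and the tests were chosen with earlier results of these data known. Named genes are the 7 chemokines, their receptors (1 of the list is not reported here), the 3 largest called rises and falls of each list, called markers and the 3 genes most like each chemokine. Others are named because they belong to a small count or a neighbourhood, or were singled out after their values were seen.

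No arrays were identical (0 pairs). Both groups carry replicate numbers 1 to 3 in the titles. Deviations from the group means correlated at 0.57, 0.24 and 0.29 for pairs 1, 2 and 3, each over 0.1. On this basis equal numbers were treated as pairs, and a fit with the replicate block was run as an alternative. Exchanging pairs 2 and 3 gave 0.35 and 0.12, so the check does not tell these from each other. In the fit with the block, limma draws the SE of each gene towards that of genes of like intensity. A block SE, and the p-value from it, can therefore understate the spread between a gene's own pairs. Further alternatives changed the filter, normalization, background, variance model, probe choice and arrays used. Promoter letters were searched with Python 3.11.15, and plots drawn with matplotlib 3.10.9.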

Additional observations from a re-analysis of the deposited data

How the results depend on the processing

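Ccl3, Ccl4 and Xcl1 kept their direction and call under all 15 alternatives run, at 4.84 to 5.20, 4.01 to 4.88 and 5.51 to 6.24. Ccl5 kept its direction in all 15 and its call in 12, and with 1 array left out its change lay between −0.98 and −0.50, so that 0 or 1 of the chemokines was called lower. The Ccl17 difference became 0.81 when the 5th percentile of each array was subtracted, which widens the scale of dim probes, and lay between 0.18 and 0.41 with 1 array left out. Ccl22 and Cxcl10, not tested, moved by less than the spread between replicates in the 11 alternatives that gave a value, at −0.12 to 0.11 and 0.05 to 0.33. The count of other ligands called, 2 of 18 tested, became 4 of 18 with the replicate block and 1 of 31 with no filter. Among probes above the median on all 6 arrays it was 1 of 6. With 1 array left out it was 1 to 3, where 15 to 17 were tested. With Ackr2 not counted, 1 receptor of the 7 chemokines was called. This count was 0 among probes above the median on all 6 arrays and without both replicate 1 arrays, and 0 or 1 with 1 array left out. Where it was 0, Xcr1 fell under the filter. Of the interferon-responsive genes 11 of 14 tested were called. With the replicate block this was 12 of 14, and among probes above the median on all 6 arrays 6 of 7. With 1 array left out 7 to 11 were called, where 11 to 14 were tested. Of 102 list genes tested, the replicate block changed the call of 10, all of which gained one, and no chemokine among the 7 was one of these. The block also raised the count called among all 11855 genes tested, from 5581 to 6397, so gains were not particular to the lists. Subtracting the 5th percentile also enlarged the changes of Fosl2 (6.11), Fosb (3.25), Zbtb46 (2.95), Stat2 (−3.26), Adgre1 (−3.16), Ifit3 (−3.02), Ackr2 (−2.49), Il4ra (−2.17), Klrd1 (−1.77) and Xcr1 (−1.13) by over 1.5 times. That list is not complete. Over the alternatives run, Cxcl1 reached 0.87, Ackr4 −1.05, Ifit2 −2.80, Oasl2 −3.20, Irf7 −2.12 and Mx2 −2.41. The mean of tested probes gave Cd22 a change of −2.31, against −2.95 for its brightest. The low signal of Ccl17, Ccl22 and Cxcl10 limits what can be said of them.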
